A study of Drosophila melanogaster with 6 samples.

Results

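Serpins are serine protease inhibitors that trap their target protease by a large change of shape, and each inhibitor molecule is used up in the act. In flies, secreted serpins hold in check the protease cascades of the hemolymph that activate the Toll receptor and the melanin-forming phenoloxidases. The fat body, the larval counterpart of liver and adipose tissue, secretes many hemolymph proteins. The serpin genes described here are all genes of the count table whose FlyBase identifier maps to a symbol of Spn followed by a digit. The name table holds 27 such symbols, and 25 of them are among the 14869 genes counted. Spn42Da and Spn77Ba had no matching identifier and were not analysed here. The gene nec, a serpin with another kind of symbol, is no member and is given only beside its neighbours.

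The study sequenced polyadenylated RNA of male wandering larvae of the third instar of Drosophila melanogaster raised at 25 °C, in 6 libraries that form 3 groups of 2 biological replicates. The first group is brain without ventral nerve cord, the others are fat body of larvae on plain food and of larvae on food with 25 µM 4-hydroxytamoxifen (4-HT), an estrogen receptor ligand. Every library, controls included, mixed larvae of the same 6 y,w lines in equal numbers, with 5 larvae per line for brain and 3 for fat body. Each line carries a transgene at ZH51C, FL.hsp70P-Dam[4-HT-intein@L127C], that encodes the DNA methyltransferase Dam with a 4-HT-dependent intein. Dam stands alone in the first line and is fused to PC, H1, HP1, MRG15 or BRM in the others. All libraries therefore pool 6 genotypes, and none comes from flies without a Dam transgene.

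Total counts ran from 20687696 to 65802288 per library. The larval serum protein gene Lsp2, a fat body marker, stood at 219885 to 271036 CPM in the fat body libraries and at 40.4 and 72.3 CPM in brain. The pan-neuronal gene elav stood at 204 and 245 CPM in brain and between 1.12 and 2.58 CPM in fat body. Summed over 8 neuron markers, the level was 1023 and 1245 CPM in brain and 553 to 694 CPM in fat body. The most abundant of these markers, Syt1, went the other way, with 80.5 and 109 CPM in brain and 549 to 687 CPM in fat body. Among the fat body libraries, control replicate 1 stood apart. There 14 salivary gland markers summed to 2005 CPM, against 3.75 to 3.91 CPM in the others. Brain had sums of 111 and 43.1 CPM, of which fkh gave 40.3 and 41.1 CPM. Sgs5 (14.4 and 0.0990 CPM) and Sgs7 (14.1 and 0.0866 CPM), also on this list, were far higher in brain replicate 1 than in replicate 2. CPM here is the count scaled to a common depth, with library sizes adjusted by TMM, a method that sets the bulk of genes equal between libraries. Factors were 2.88 and 3.05 in brain and 0.547 to 0.614 in fat body, where the serum protein genes take up much of the reads.

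As a family, serpin transcripts were far more abundant in fat body than in brain. The 25 genes summed to 49.5 and 45.7 CPM in the brain libraries, 874 and 896 CPM in control fat body and 870 and 904 CPM in fat body with 4-HT. The brain sums lay below all fat body sums, while both kinds of fat body overlapped. As a share of unscaled counts the family took 0.0142% and 0.0139% in brain and 0.0490% to 0.0555% in the 4 fat body libraries. Within each library, 20 or 21 of the 25 genes had at least 1 count, but just 7 reached 1 CPM in each brain library and 12 or 13 in each fat body library. In bulk tissue, fewer cells of a type and less RNA per cell cannot be told apart, which applies to each difference between tissues here.

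**Figure D1:**
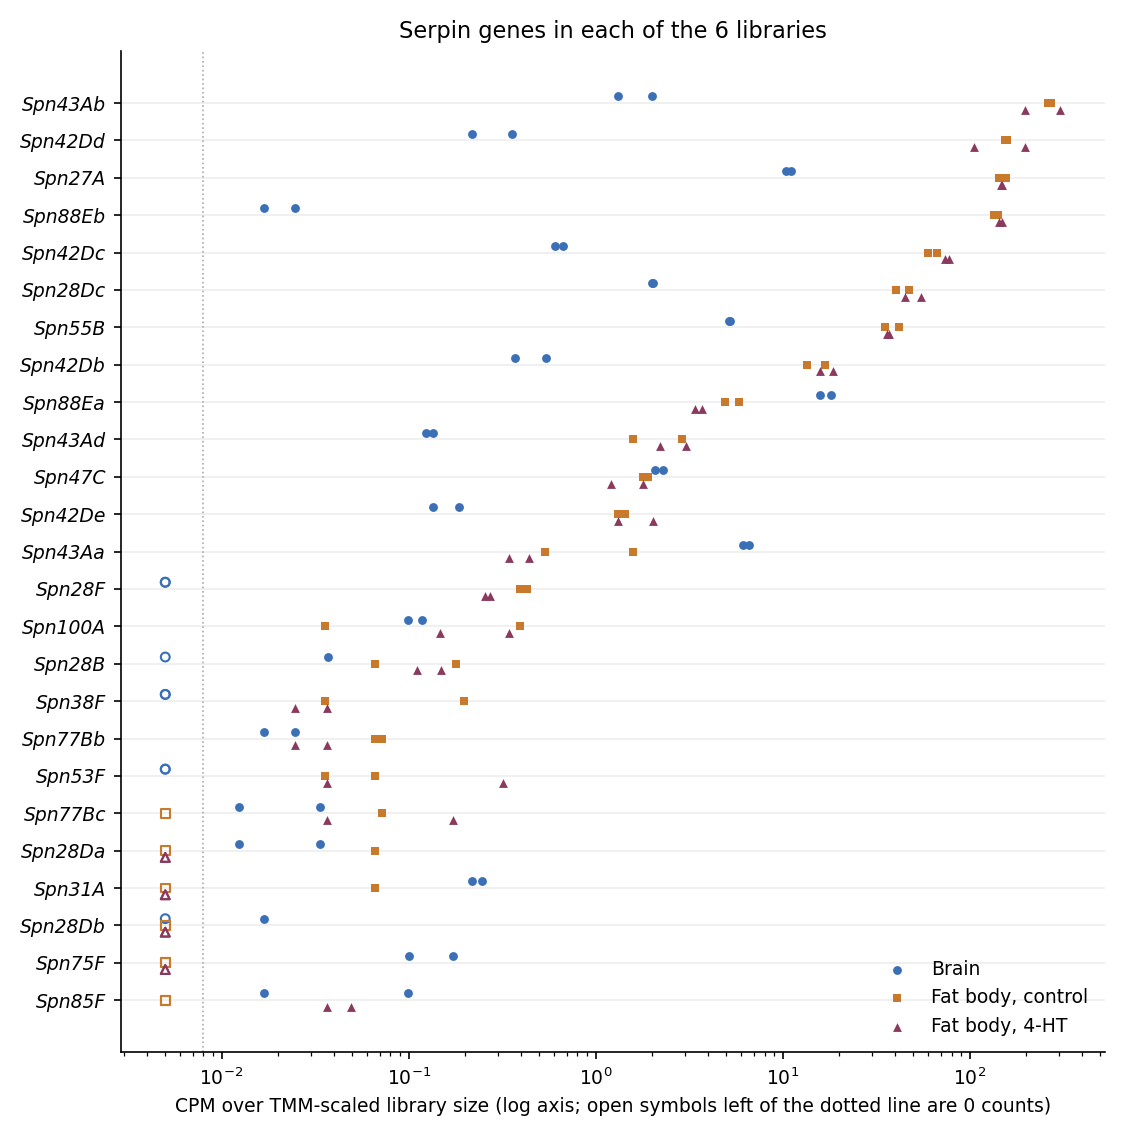
CPM of each of the 25 serpin genes (rows, ordered by mean level in control fat body) on a log axis. Points are single libraries, 2 per group, and open symbols left of the dotted line stand for 0 counts. Spn43Ab, Spn42Dd, Spn27A and Spn88Eb exceed 100 CPM in every fat body library, while Spn88Ea and Spn43Aa are highest in brain.

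In brain and control fat body, 16 of the 25 genes passed the filter on low counts and were tested. Of these, 10 were lower in brain, 2 were higher and 4 did not pass (edgeR quasi-likelihood test on 10029 genes, threshold 0.05 after Benjamini-Hochberg adjustment). Over all genes tested, 34.5% were called lower and 35.5% higher in brain, 70.0% in all. The 12 called serpin genes are 75% of those tested, which is near that background, and the count of lower calls is above its own. All 10 lower genes fell at least 4-fold, as did 18.4% of all genes, and 5 fell at least 32-fold, as did 7.77%. A rise of at least 4-fold was called for 1 serpin gene and for 20.3% of all genes. Brain and control libraries did not overlap for 15 of the 16, against 86.5% of all genes. In 5 both brain libraries lay above the controls (45.2% of all genes) and in 10 below (41.4%). At an unadjusted p under 0.05 the count was 13 of 16, against 72.6% of all genes. The median log2 fold change of the 16 genes was -3.44, against 0.11 for all genes. With library size in place of TMM these medians were -1.06 and 2.49, and the difference between them was -3.55 with TMM and -3.54 without it. That scaling shifts all genes alike, and with it 75.5% of all genes were called higher in brain and 11.8% lower, against 5 and 9 of the 16 serpin genes. A member with counts mainly in the group where it is high could pass the filter through that group alone, so these counts describe the tested genes and not the whole family. In the authors' deposited table, the same 12 genes have an adjusted p under 0.05, 2 of them higher and 10 lower in brain.

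Spn27A (FBgn0028990) encodes the inhibitor that limits melanization in the hemolymph and, in the embryo, the Toll-activating protease Easter. It stood at 11.1 and 10.4 CPM in brain, 143 and 157 CPM in control fat body and 149 and 147 CPM in fat body with 4-HT. Brain and fat body did not overlap, and the log2 fold change of brain over control fat body was -3.80 ± 0.185 (SE; edgeR adjusted p = 8.61e-06). At 10.8 ± 0.451 CPM (mean ± SD, n = 2) it was still the second most abundant serpin transcript by CPM in brain.

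Spn28Dc (FBgn0031973), whose product restrains phenoloxidase activation after injury, stood at 2.03 and 2.00 CPM in brain. Its levels were 40.3 and 47.1 CPM in control fat body and 45.0 and 55.2 CPM with 4-HT. The brain replicates were nearly equal and lay 21.6-fold under control fat body (log2 fold change -4.44 ± 0.198, edgeR adjusted p = 6.62e-06). Spn42Dd (FBgn0028988), also known as Spn1, encodes a repressor of Toll activation by fungal recognition. It stood at 0.218 and 0.359 CPM in brain, 154 and 158 CPM in control fat body and 197 and 105 CPM with 4-HT. The control replicates were close and the 4-HT replicates lay on either side of them, 1.88-fold apart. The fall in brain was 527-fold (log2 fold change -9.04 ± 0.484, edgeR adjusted p = 1.23e-05).

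Spn88Ea (FBgn0028984), also known as Spn5 and described as a Toll pathway regulator needed for wing expansion, went the other way. It stood at 18.2 and 15.9 CPM in brain, 5.87 and 4.92 CPM in control fat body and 3.38 and 3.69 CPM with 4-HT. It was the most abundant serpin transcript of brain, with no overlap between brain and fat body. The log2 fold change of brain over control fat body was 1.67 ± 0.189 (edgeR adjusted p = 2.93e-04). Spn43Aa (FBgn0024294), a member of the 43A cluster, was the other gene higher in brain, at 6.61 and 6.16 CPM. Its control fat body replicates stood at 1.58 and 0.538 CPM and the 4-HT replicates at 0.441 and 0.346 CPM. The log2 fold change was 2.65 ± 0.508 (edgeR adjusted p = 0.00333). The higher of the control values came from the library rich in salivary gland transcripts. Most hemocyte markers, though not srp and lz, were also higher there. The part of such transcripts in the Spn43Aa value was not tested. Without that library the log2 fold change was 3.59 for Spn43Aa and 1.82 for Spn88Ea, and both were called. An opposite-strand gene, CG12828, overlaps 116 exon bases of Spn43Aa and had at most 1 count in any library.

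The widest contrast between tissues belonged to Spn88Eb (FBgn0038299), the neighbour of Spn88Ea. It had 1 and 2 counts in the brain libraries, or 0.0168 and 0.0247 CPM. Control fat body held 135 and 141 CPM, and fat body with 4-HT 144 and 149 CPM. The ratio of control fat body to brain was 6498, with a 95% counting interval of 2223 to 31520 (edgeR adjusted p = 3.87e-06). Its mean in brain was 0.0151% of that in control fat body, and the corresponding share for the serum protein gene Lsp2 was 0.0230%. Transcripts carried over from fat body during dissection would appear at such a low share. Their part in the brain counts was not tested.

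Spn43Ab (FBgn0024293) was the most abundant serpin transcript of fat body, at 273 and 261 CPM in controls and 199 and 304 CPM with 4-HT. It stood at 2.00 and 1.31 CPM in brain, a log2 fold change of -7.34 ± 0.379 (edgeR adjusted p = 1.07e-05). The 4-HT replicates enclosed the control values. Spn42Dc (FBgn0033113) stood at 0.604 and 0.668 CPM in brain, 59.7 and 66.6 CPM in control fat body and 73.6 and 77.3 CPM with 4-HT. Its log2 fold change in brain was -6.62 ± 0.202 (edgeR adjusted p = 3.87e-06). Spn42Db (FBgn0033112) stood at 0.369 and 0.544 CPM in brain, 13.5 and 16.8 CPM in control fat body and 15.9 and 18.6 CPM with 4-HT. It fell 32.7-fold in brain (log2 fold change -5.03 ± 0.272, edgeR adjusted p = 1.27e-05). For these genes as well no brain value reached any fat body value.

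Among the called genes that were lower in brain, Spn55B (FBgn0028983) had the smallest fall, from 41.9 and 35.1 CPM in control fat body to 5.20 and 5.20 CPM in brain, with 36.0 and 36.8 CPM in fat body with 4-HT. Its log2 fold change was -2.89 ± 0.163 (edgeR adjusted p = 1.48e-05), or -0.50 with library size only (edgeR adjusted p = 0.0358). Spn43Ad (FBgn0044011) stood at 0.134 and 0.124 CPM in brain, 1.58 and 2.91 CPM in control fat body and 2.21 and 3.04 CPM with 4-HT (log2 fold change -4.11 ± 0.510, edgeR adjusted p = 4.47e-04). Spn42De (FBgn0033115) stood at 0.134 and 0.186 CPM in brain, 1.32 and 1.44 CPM in control fat body and 2.02 and 1.31 CPM with 4-HT. Its fall of 3.08 ± 0.502 on the log2 scale passed (edgeR adjusted p = 0.00161). With library size only the log2 fold change was -0.70 and did not pass (edgeR adjusted p = 0.268). The median of all genes was 2.49 under that scaling, against 0.11 with TMM.

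Spn47C (FBgn0033574) was nearly level between the tissues, at 2.30 and 2.07 CPM in brain, 1.78 and 1.90 CPM in control fat body and 1.80 and 1.21 CPM with 4-HT. The log2 fold change of 0.24 ± 0.360 did not pass (edgeR adjusted p = 0.567). With library size only it was 2.63 (edgeR adjusted p = 4.62e-04), where the median of all genes was 2.49, so that the gene lay close to that median under both scalings.

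**Figure D2:**
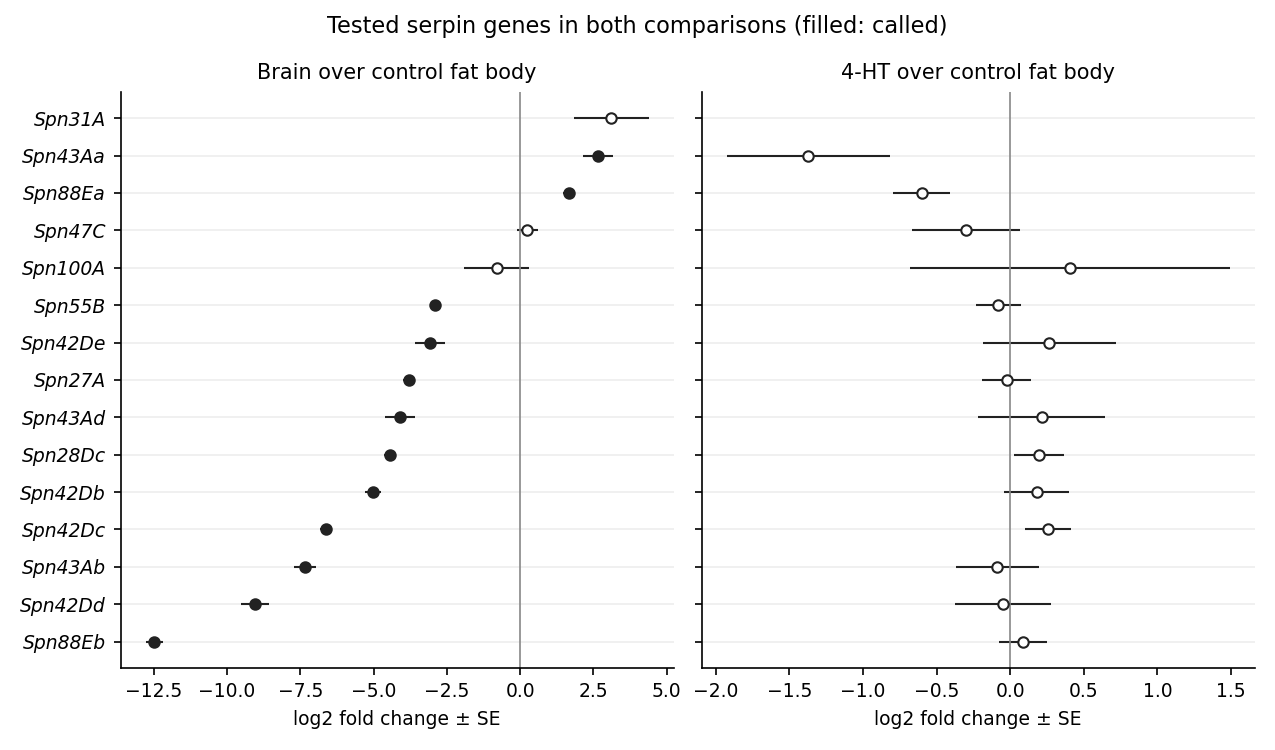
Log2 fold change with its SE (bars) for 15 tested serpin genes, brain over control fat body on the left and 4-HT over control fat body on the right. Filled points passed an edgeR adjusted p under 0.05, and the 2 panels share control libraries and have different axes. Spn75F, with 0 counts in fat body, is left out of both panels and Spn31A out of the right one. Values range from -12.47 to 3.10 on the left and from -1.37 to 0.41 on the right, where no point is filled. With library size only, Spn100A changes sign on the left and Spn42Dd and Spn27A on the right.

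The other 12 genes stayed under 1 CPM in the mean of every group. Among them, 3 were tested and did not pass between tissues. Spn75F (FBgn0052203) had 6 and 14 counts in brain and 0 in all 4 fat body libraries, so that it was at least 2.04-fold higher in brain than control fat body, over a floor of 3 counts per group (edgeR adjusted p = 0.0562). Spn31A (FBgn0032178) had 13 and 20 counts in brain and 1 count in the fat body libraries together, a ratio over control fat body of 10.1 with a counting interval of 1.69 to 411 (edgeR adjusted p = 0.0756). With library size only, both passed (edgeR adjusted p = 0.00896 for Spn75F and 0.00738 for Spn31A). Spn75F also passed with upper quartile scaling (edgeR adjusted p = 0.0449), and Spn31A with only the 4 libraries of brain and control fat body (edgeR adjusted p = 0.0490). Over all alternatives the adjusted p ran up to 0.212 for Spn75F and 0.357 for Spn31A. Spn100A stood at 0.118 and 0.0990 CPM in brain and at 0.396 and 0.0359 CPM in the control replicates, which enclosed the brain values (log2 fold change -0.80 ± 1.11, edgeR adjusted p = 0.540; with library size only 1.51).

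The 9 genes that did not pass the filter were Spn28B, Spn28Da, Spn28Db, Spn28F, Spn38F, Spn53F, Spn77Bb, Spn77Bc and Spn85F. Several of them, among them Spn38F and Spn77Bc, are known from the accessory glands of adult males. None exceeded 13 counts in any library. Spn28F (FBgn0028987) had 0 counts in both brain libraries and 6, 12, 7 and 11 in the fat body libraries, so that it was at least 19.6-fold lower in brain than in control fat body over the same floor. DESeq2, which tested more genes, called it lower in brain (adjusted p = 4.13e-04). It had 13 serpin calls in 18 genes, against 63.1% of all genes it tested. Spn38F likewise had 0 counts in brain and 3, 1, 1 and 1 in fat body. Spn53F had 0 counts in brain, 1 in each of 3 fat body libraries and 13 in 4-HT replicate 2, 8.74-fold above 4-HT replicate 1 by CPM. Spn85F had 1 and 8 counts in brain, 0 in both controls and 1 and 2 with 4-HT, and CG5359 on the opposite strand shares 273 of its exon bases. An antisense RNA gene overlaps all 1279 exon bases of Spn53F. The strand setting of the counting is not given in the sources used here, and without strand the reads of such partners cannot be told apart.

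Levels of different genes were compared per kb of exon. In control fat body the order was Spn43Ab at 201 CPM per kb, Spn42Dd at 131, Spn88Eb at 96.4, Spn27A at 65.8, Spn42Dc at 37.1, Spn55B at 29.7, Spn28Dc at 24.4 and Spn42Db at 10.2. The 2 replicates of each gene lay apart from those of the next in this order. With 4-HT the order of the means was the same, but Spn43Ab (149 to 229 CPM per kb) overlapped Spn42Dd (87.7 to 165), Spn42Dd overlapped Spn88Eb (101 to 104), and Spn55B overlapped Spn28Dc. In 4-HT replicate 2 Spn88Eb lay above Spn42Dd. In brain Spn88Ea led with 11.2 CPM per kb, followed by Spn43Aa at 4.94, Spn27A at 4.71 and Spn55B at 4.01. Spn43Aa and Spn27A overlapped there, while Spn88Ea lay above and Spn55B below both. By CPM, the 5 most abundant serpin genes held 86.5% to 87.8% of the family's total in every library.

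Some serpin genes lie in groups along the chromosome arms, and neighbours did not share a tissue pattern in every case. The 25 genes fall on arms 2L (8 genes), 2R (10), 3L (3) and 3R (4). More than 1 of them lie in each of 5 cytological bands, which hold 14 of the 25. In band 88E, Spn88Ea and Spn88Eb are adjacent on the same strand. Per kb, the level of Spn88Ea was 11.2 CPM in brain and 3.55 CPM in control fat body, while Spn88Eb stood at 0.0145 and 96.4 CPM. In band 43A, Spn43Aa was higher in brain while Spn43Ab and Spn43Ad, which are adjacent to each other but not to Spn43Aa, were lower. The serpin gene nec (FBgn0002930), next to Spn43Ad and known as an inhibitor of Toll activation through the protease Persephone, stood at 1.11 and 0.829 CPM in brain, 374 and 460 CPM in control fat body and 449 and 431 CPM with 4-HT. Its log2 fold change of -8.75 ± 0.305 in brain (edgeR adjusted p = 4.08e-06) had the direction of Spn43Ab and Spn43Ad. Per kb, nec (255 CPM) exceeded Spn43Ad (1.57 CPM) in control fat body although the 2 genes are next to each other.

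In band 42D all 4 counted genes were lower in brain under TMM, and they spanned a wide range of level in control fat body. The means per kb were 10.2 CPM for Spn42Db, 37.1 for Spn42Dc, 131 for Spn42Dd and 0.971 for Spn42De. In brain the same genes lay between 0.113 and 0.373 CPM per kb. Spn42Dc and Spn42Dd share 63 exon bases on the same strand in the release 6 annotation, and Spn42Db shares 380 with an antisense RNA gene. How the authors' counting treated reads from such overlaps is not given in the sources used here. In band 77B, Spn77Bb and Spn77Bc each had at most 7 counts in any library. The 3 genes of band 28D differed widely: Spn28Da and Spn28Db, adjacent to each other, had 0 to 2 counts per library, and Spn28Dc, which is not adjacent to them, reached 40.3 to 55.2 CPM in fat body.

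**Figure D3:**
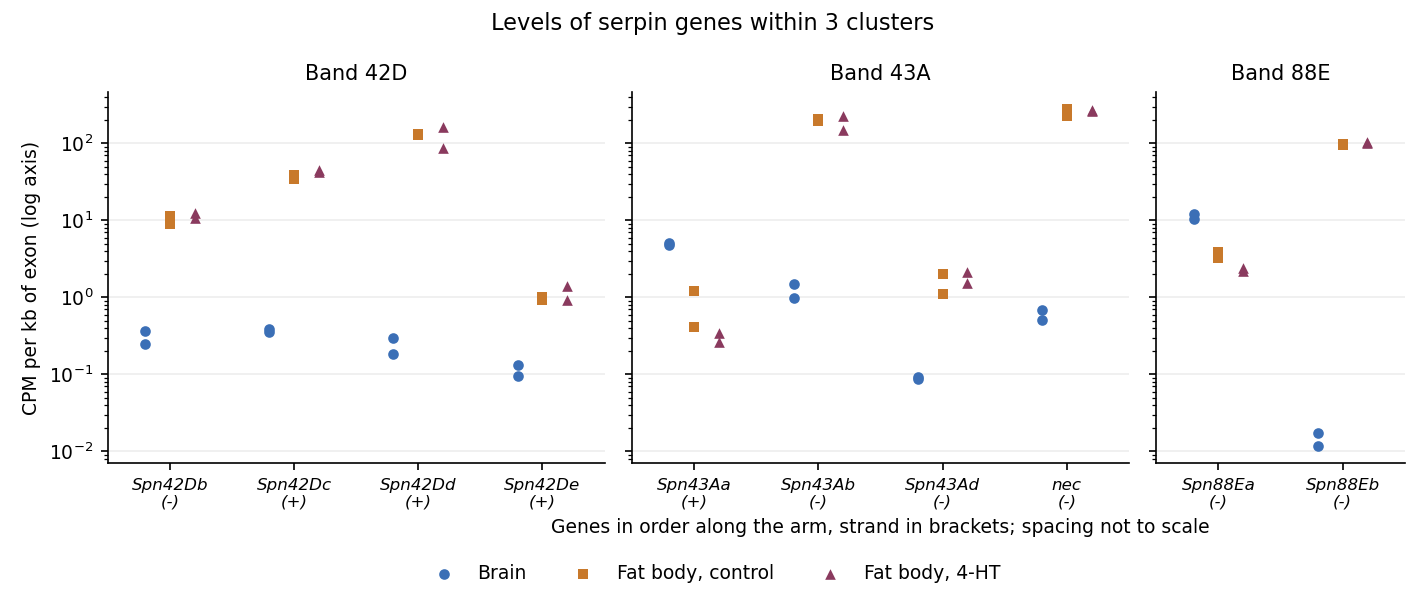
CPM per kb of exon, on a log axis, for serpin genes of bands 42D, 43A and 88E in their order along the arm, with nec added to 43A. Points are single libraries, 2 per group. Within 43A and 88E the first gene shown (Spn43Aa, Spn88Ea) is higher in brain and the others are higher in fat body, while in 42D the 4 genes are all higher in fat body and differ in level.

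The second comparison asked whether 4-HT in the food, the inducer of the Dam system, changes transcript levels of fat body. It uses the same control libraries as the first. No serpin gene passed (0 of 16 by edgeR, with 0.00% of all genes called). At an unadjusted p under 0.05 the test gave 2 serpin genes, or 12.5% of those tested, against 5.94% of all genes. DESeq2 called 0 of 15 serpin genes and 0.422% of all genes. The authors' deposited table gives none of the 25 genes an adjusted p under 0.05 (0 genes). Over the 14 tested genes with more than 3 counts in at least 1 of the fat body groups, the median log2 fold change was 0.03, beside 0.01 for all genes.

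The abundant fat body serpins lay close together with and without 4-HT. Spn27A differed by -0.02 ± 0.165 on the log2 scale, Spn88Eb by 0.09 ± 0.164, Spn55B by -0.08 ± 0.152 and Spn28Dc by 0.20 ± 0.170. For Spn43Ab (-0.09 ± 0.284) and Spn42Dd (-0.05 ± 0.329) the SE was wider, and their 4-HT replicates differed 1.53-fold and 1.88-fold. Spn42Dc stood at 59.7 and 66.6 CPM in controls and 73.6 and 77.3 CPM with 4-HT, a difference of 0.26 ± 0.154 without overlap that did not pass (edgeR adjusted p = 0.905). The edgeR adjusted p of these 7 genes lay between 0.905 and 0.999. Groups did not overlap for 4 of the 16 tested genes, Spn42Dc and Spn88Eb with higher and Spn43Aa and Spn88Ea with lower values under 4-HT, against 30.0% of all genes (15.5% above and 14.6% below).

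The lowest unadjusted p-values were those of the 2 serpins that were higher in brain. Spn88Ea stood at 5.87 and 4.92 CPM in control fat body and 3.38 and 3.69 CPM with 4-HT, a log2 fold change of -0.60 ± 0.192 (edgeR adjusted p = 0.835). Spn43Aa stood at 1.58 and 0.538 CPM in control and 0.441 and 0.346 CPM with 4-HT, a log2 fold change of -1.37 ± 0.553 (edgeR adjusted p = 0.835). The replicates of Spn43Aa in control fat body were 2.94-fold apart. Without control replicate 1, the library rich in salivary gland transcripts, the difference was -0.46 for Spn43Aa and -0.47 for Spn88Ea. Without control replicate 2 it was -2.01 for Spn43Aa (edgeR adjusted p = 0.195) and -0.72 for Spn88Ea.

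Serpins act on protease cascades, whose genes were taken from a list. Of 25 listed cascade proteases, inactive homologues and furins, 23 were in the table and 18 were tested. In brain 12 of these were called lower and 3 higher, or 83.3% in all, beside 34.5% lower, 35.5% higher and 70.0% in all over the genes tested. Their median log2 fold change was -4.51, against 0.11 for all genes. Without TMM scaling 11 were lower and 6 higher (11.8% and 75.5% of all genes), and the list's median lay -4.62 from that of all genes, against -4.61 with TMM. The genes higher in brain with TMM, named after their values were seen, were gd, mas and the neuroendocrine convertase gene amon.

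Persephone (psh, FBgn0030926), a Toll-activating protease held in check by the serpin nec, stood at 0.0168 and 0.0247 CPM in brain, 66.4 and 68.6 CPM in control fat body and 69.0 and 79.6 CPM with 4-HT. The ratio of control fat body to brain was 3175 with a counting interval of 1085 to 15403, from 3 counts in brain (edgeR adjusted p = 3.87e-06). The related protease gene Hayan, of the Toll and melanization cascades, stood at 0.269 and 0.458 CPM in brain and 174 and 229 CPM in control fat body (log2 fold change -9.08 ± 0.405, edgeR adjusted p = 6.62e-06). SPE, which cleaves the Toll ligand Spätzle, stood at 0.0168 and 0.148 CPM in brain and 55.0 and 38.3 CPM in control fat body (log2 fold change -8.96 ± 0.566). For all 3, as for Spn43Ab, Spn42Dd, Spn88Eb and nec, no brain value reached a fat body value. Against control fat body alone, both brain libraries lay below both controls for 41.4% of all genes tested.

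The melanization proteases MP1 and Sp7 had a weaker contrast, of a size near that of Spn27A and Spn28Dc. MP1 stood at 8.06 and 9.89 CPM in brain and 183 and 184 CPM in control fat body (log2 fold change -4.35 ± 0.210), and Sp7 at 7.92 and 7.18 against 178 and 184 CPM (-4.58 ± 0.207). CG11313, a protease gene named for the size of its difference, stood at 0.0672 and 0.124 CPM in brain and 295 and 239 CPM in control fat body (log2 fold change -11.36 ± 0.406). Fur1, a convertase of the secretory pathway, stood at 22.6 and 31.0 CPM in brain and 133 and 173 CPM in control fat body (log2 fold change -2.51 ± 0.262, or -0.11 with library size only). The gene ea, whose protease Easter is a target of Spn27A in the embryo, had 17 counts in brain and 1 in control fat body and was not tested. No gene of this list passed with 4-HT (0 of 18 by edgeR).

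**Figure D4:**
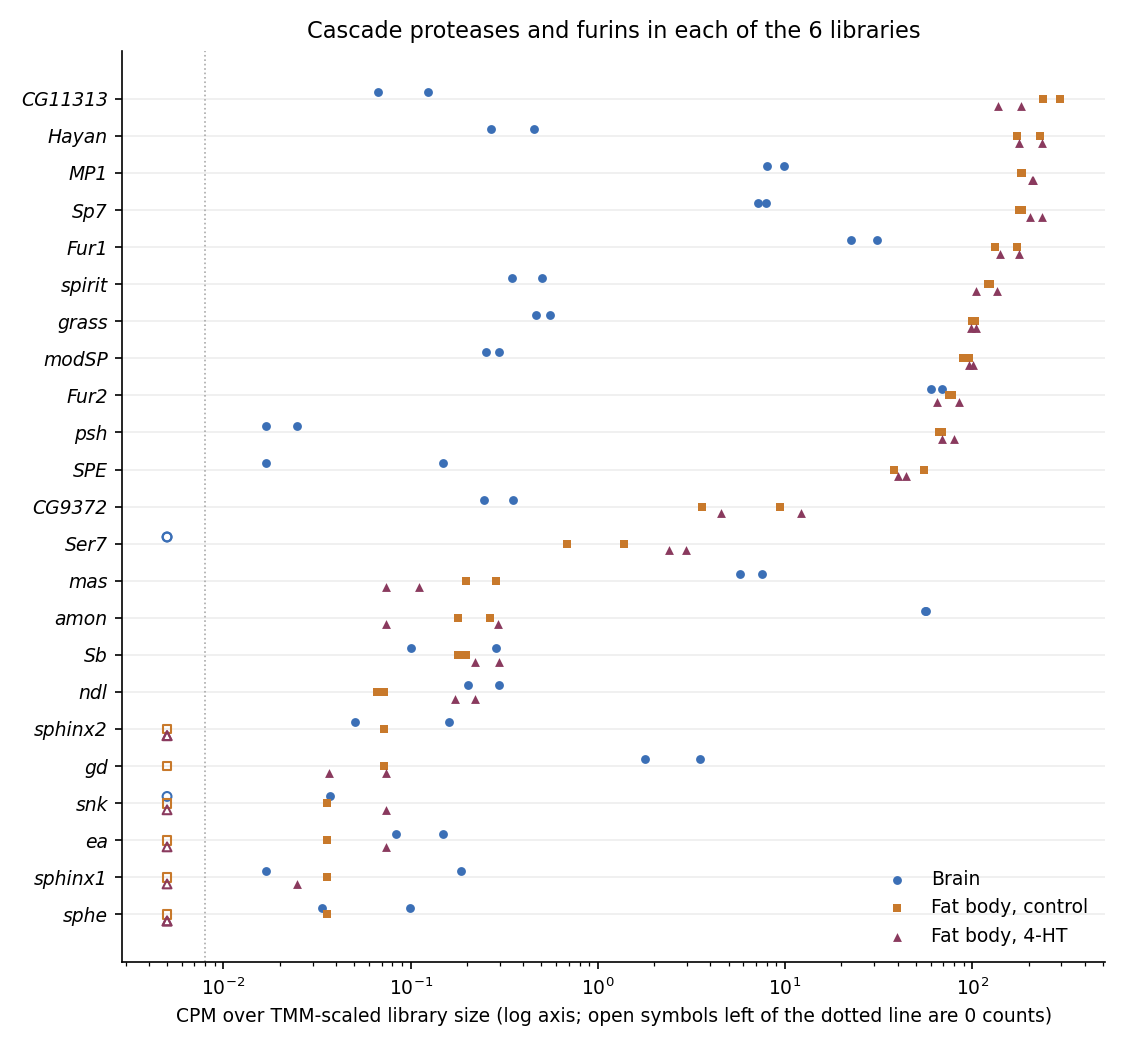
CPM of 23 cascade proteases, inactive homologues and furins (rows, ordered by mean level in control fat body) on a log axis. Points are single libraries, 2 per group, and open symbols left of the dotted line stand for 0 counts. The genes psh, SPE, MP1 and Sp7 lie to the right in fat body, while amon, mas and gd are higher in brain. The protease genes ea, snk and ndl stay under 1 CPM in every library.

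A list of 17 genes for Toll ligand, receptor and cytoplasm also held Rel and pip, which are not core parts of Toll signalling. The receptor gene of the list, Tl, had no matching identifier and was not analysed here. Of the 17 genes, 16 were in the table and 13 tested, and brain was called lower for 8 and higher for 1. These calls are 69.2% of the list, near the 70.0% of all genes. Their median log2 fold change was -1.67, against 0.11 for all genes. Without TMM scaling 7 were higher and 4 lower, with medians of 0.72 for the list and 2.49 for all genes. The sign of the list's median thus turned with the scaling, while its difference from all genes was -1.78 with TMM and -1.77 without. The gene of the Toll ligand Spätzle, spz, stood at 5.49 and 5.21 CPM in brain and 20.3 and 20.1 CPM in control fat body (log2 fold change -1.91 ± 0.202; with library size only 0.47). The NF-kappaB gene dl stood at 1.63 and 2.31 against 28.8 and 49.8 CPM (-4.31 ± 0.333; with library size only -1.91). Rel stood at 10.98 and 9.87 against 129 and 156 CPM (-3.77 ± 0.209; with library size only -1.38). Toll-7, which has known roles in the nervous system, was the 1 gene called higher, with 183 and 174 CPM in brain and 2.51 and 1.65 CPM in the controls.

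Of 9 listed prophenoloxidase and melanin genes, 7 were in the table and tested, 5 of them lower and 2 higher in brain, beside 34.5% lower and 35.5% higher over all genes. The median log2 fold change was -2.90, against 0.11 for all genes. Without TMM scaling it was -0.50, against 2.49, with 2 genes lower and 3 higher. PPO2, the prophenoloxidase of crystal cells, stood at 1.85 and 2.14 CPM in brain, 32.01 and 4.81 CPM in control fat body and 4.08 and 16.8 CPM with 4-HT. Its fat body replicates differed widely, and the log2 fold change of brain over control was -3.19 ± 0.990 (edgeR adjusted p = 0.0254). Summed over 11 hemocyte markers, PPO2 among them, the level was 58.1 and 52.5 CPM in brain. In control fat body it was 673 and 681 CPM, and with 4-HT 637 and 574 CPM. The control sums were nearly equal, but most of each came from the transcription factor gene srp (375 and 549 CPM). In the control library with more PPO2, srp and the transcription factor gene lz (0.0660 and 0.251 CPM) were lower. All other members were higher there, among them Hml (48.6 and 16.1 CPM) and Pxn (55.9 and 10.0 CPM). The part of hemocytes in the PPO2 values was not tested. The melanin pathway gene yellow-f stood at 0.252 and 0.309 CPM in brain and 434 and 396 CPM in control fat body (log2 fold change -10.50 ± 0.309). The related gene yellow-f2 had 1 count in brain and stood at 4.16 and 3.52 CPM in control fat body and 2.32 and 9.25 CPM with 4-HT. Its ratio of control fat body to brain was 525 with a counting interval of 93.0 to 20883 (edgeR adjusted p = 4.75e-04). PPO1 had no matching identifier and was not analysed here. The dopa decarboxylase gene Ddc rose in brain, with 10.1 and 11.9 CPM there and 0.264 and 0.251 CPM in the controls (5.41 ± 0.328), as did the tyrosine hydroxylase gene ple (4.76 ± 1.05). Both enzymes also make dopamine in neurons. With 4-HT 0 of 13 tested genes of the Toll list and 0 of 7 melanin genes passed by edgeR.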

How the data were processed

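The authors deposited unscaled whole-number counts for each FlyBase gene. Per the submitters' processing notes, the tools were TopHat, HTSeq and DESeq, and the build was dm3. How reads were assigned to genes, with what strand setting and which annotation, is not given in the sources used here. The deposited comparison tables hold log2 fold changes and adjusted p-values made by the authors, per the file headers.

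Symbols were matched by FlyBase identifier for 13524 of 14869 genes. Exon lengths and gene order came from the Ensembl annotation of release 6, and no coordinates were taken from it. Genes were kept by filterByExpr (minimum count 10), scaled by TMM and fitted with edgeR 4.0.16 (robust estimateDisp and glmQLFit, then glmQLFTest) in a model of the 3 groups on the 6 libraries, leaving 3 residual degrees of freedom. Calls used a threshold of 0.05 after Benjamini-Hochberg adjustment across the 10029 genes kept. The SE of a log2 fold change was derived from the quasi-likelihood F. Alternatives were other scalings, no filter, DESeq2 1.42.0, fewer libraries and a replicate block. The fit was also run on simulated data. Few genes changed between groups there, so that run cannot speak to the scaling between brain and fat body.

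The members and the gene lists were chosen with earlier results of these data known. Every serpin gene was to be named, with single-library values for those at 1 CPM or more in a group. From each pathway list the rule took up to 3 called genes with the largest differences, and psh, ea, Hayan, SPE, MP1, Sp7, spz, nec, PPO1, PPO2 and Fur1. Outside it, gd, mas, amon, ple, Hml, Pxn, lz, fkh and the single values of serpin genes under 1 CPM were chosen after their values were seen. Planned sequence comparisons of proteins and promoters were not analysed here. Counting intervals and floors cover counting error only.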

Additional observations from a re-analysis of the deposited data

How the results depend on the processing

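Between brain and fat body, 10 serpin genes were called lower and 2 higher, and 1 alternative moved the higher count by more than 1.5 times. With library size only, 5 serpin genes were called higher in brain (75.5% of all genes) and 9 lower (11.8% of all genes). Spn75F was also gained with upper quartile scaling and Spn31A with only the 4 libraries compared. Leaving out 1 library at a time gave 10 to 11 lower and 2 higher serpin genes and 5688 to 6986 called genes in all. Among single serpin genes in this comparison, 207 of the repeated tests kept direction and call. Spn100A changed sign with library size only (1.51) and without fat body control replicate 1, with a range of -0.92 to 1.55 over single libraries left out, and was called in none of these. In the 4-HT comparison no serpin gene passed under any alternative run, and the number of all genes called rose from 0 to 2 without a filter, to 44 with DESeq2 and to between 0 and 38 when 1 library was left out, most without fat body 4-HT replicate 2. Differences near 0 changed sign without passing: Spn42Dd (0.012) and Spn27A (0.051) with library size only, and Spn27A without a filter (0.0015). With 1 library left out the ranges that crossed 0 were -0.088 to 0.055 for Spn27A, -0.19 to 0.053 for Spn55B, -0.57 to 0.34 for Spn42Dd, -0.42 to 0.19 for Spn43Ab, -0.068 to 0.55 for Spn42De and -0.14 to 0.74 for Spn43Ad, which was also negative without fat body 4-HT replicate 2 (-0.040). The cause of these shifts was not tested. Replicate numbers are shared by the groups, but the labels name no common batch: deviations of same-numbered libraries correlated at 0.188 between brain and control fat body and at -0.137 between the fat body groups. With the replicate block 6658 genes were called between tissues and 0 with 4-HT, and the serpin counts were 2 higher and 10 lower. With the 4-HT numbers exchanged, an alternative chosen after seeing the data, 7274 and 0 genes were called. With 2 libraries per group, changes of low-count serpins are poorly resolved.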
